A study of Mus musculus with 6 samples.

Results

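The genes described here are 38 listed genes of the type I interferon response, followed in CD4+CD25+ regulatory T cells (Treg) of mice, from HDAC6 knockout and wild-type animals. They were listed by name, with earlier results of these data known. A gene was measured where the platform annotation gave it a probe set of its own, and its brightest probe set by the mean of the 6 arrays was used. This gave 34 of the 38 listed genes, out of 12393 genes in all. The only probe set naming Isg15 also names a second gene, and Ifi44, Ddx58 and Xaf1 had no probe set named here, so these 4 genes have no values. The knockout group is 3 arrays of Treg from mice lacking HDAC6, a largely cytoplasmic deacetylase, and the wild-type group is 3 arrays of Treg from C57BL6 mice. The sources used here do not name the strain of the knockout mice, any age, or how many animals gave a sample. The p-values therefore measure the spread between these samples. No treatment or infection was named for either group.

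Type I interferons bind the receptor formed by IFNAR1 and IFNAR2, whose kinases JAK1 and TYK2 phosphorylate STAT2. STAT2 acts with IRF9 in a complex that binds the interferon-stimulated response element (ISRE) before its target genes. The targets include RNA and DNA sensors, enzymes that degrade viral RNA, proteins that block viral entry or assembly, and USP18, which damps the receptor. T cells carry the receptor and express many of these genes at a low resting level.

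Values are log2 array units, in which a step of 1 is a doubling, and differences are knockout minus wild type with standard errors (SE) from limma. The arrays' medians lay between 6.22 and 6.27 and their lower quartiles between 4.14 and 4.25. Every knockout array lay below wild type for Hdac6 itself, at a difference of -0.71 (SE 0.11, adjusted p = 0.0775). The sources used here do not place its probe set relative to the deleted part. The Treg markers fixed for this work (Foxp3, Il2ra, Ctla4, Ikzf2, Tnfrsf18, Cd4 and Cd3e) averaged 9.94 to 10.01 in the knockout arrays and 9.86 to 9.96 in wild type. Foxp3, the factor that defines these cells, read 10.18, 10.40 and 10.38 across the knockout arrays and 10.25, 10.21 and 10.33 across the wild-type arrays. These values match the label.

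Most of the interferon response genes read higher in the knockout, by small amounts and with 1 array far above the rest. Of the 34 genes, 28 (82.4%) were higher and 6 lower, with a median difference of 0.25, against 50.7% of all genes higher and a median of 0.00. In 14 of the 34 every knockout array lay above every wild-type array, which held for 8.28% of all genes, and in 0 did every knockout array lie below, against 10.3%. By limma 0 of the 34 passed an adjusted p of 0.05, which 0.169% of all genes did. At an unadjusted p of 0.05, 11 were higher and 0 lower, against 5.98% and 5.83% of all genes. Among genes above the lower quartile in all arrays the difference was largest for Rsad2, Usp18 and Mx1. Oasl2 differed by more, but its wild-type values were near the floor of the scale. The lowest adjusted p among the 34 was 0.150, and among the 16 genes followed under the alternative settings it was 0.0853, for Mx1 with trend and robust settings.

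**Figure D1:**
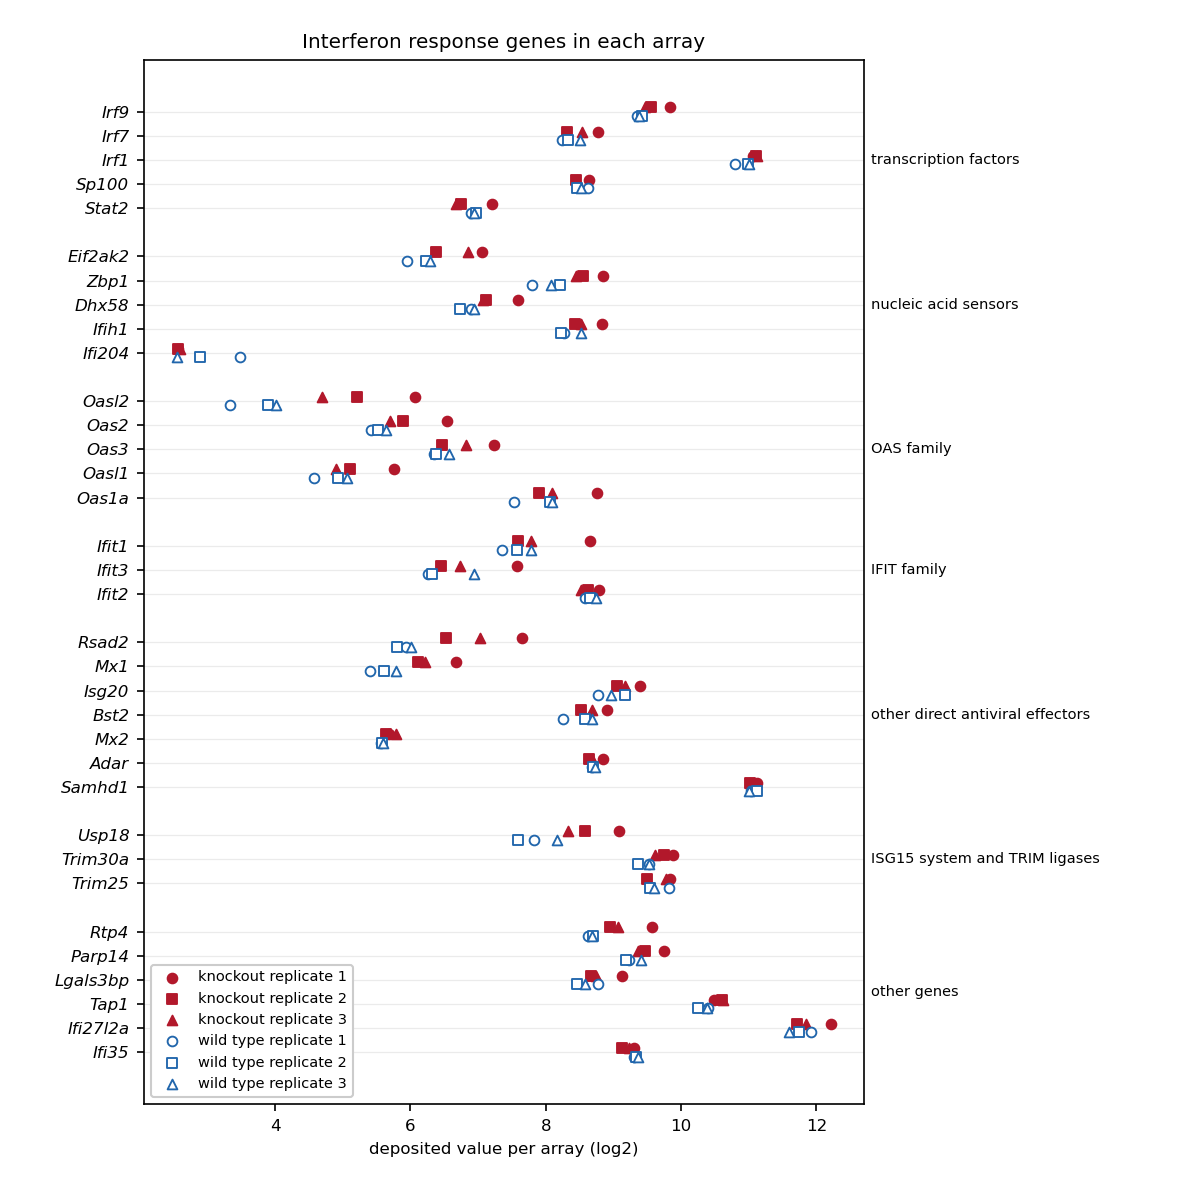
Deposited log2 value (horizontal axis) of each of the 34 measured interferon response genes in each array, grouped by role, with knockout arrays filled and wild-type arrays open. Knockout replicate 1 (filled circles) is the highest of the 6 arrays for 28 of the genes.

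Promoter sequence is shown because genes of this response are read through a shared element. In the RefSeq promoter windows (GRCm38.p6, 250 bases before to 50 after a transcript start), 28 of the 38 genes had at least 1 window. The ISRE core was searched as GAAANNGAAA and the interferon-gamma element GAS as TTCNNNGAA, both on either strand. The ISRE core was present for 12 of the 28 genes (42.9%), against 3.99% of all genes with a window, and GAS for 9 (32.1%), against 9.55%. By window the shares were 35.1% against 3.44% for the ISRE core and 24.3% against 8.30% for GAS. Both motifs were found for 3 genes, and for 1 of them, Bst2, the matches overlapped. The stretches below hold an ISRE core that lies wholly before the start and outside any annotated gene. They are given for the 4 measured genes where this was so, on the gene's strand, with the matched letters in capitals.
Rsad2, chr12:26456533-26456602, minus strand: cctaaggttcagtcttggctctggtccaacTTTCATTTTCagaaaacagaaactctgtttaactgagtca
Trim30a, chr7:104465194-104465259, minus strand: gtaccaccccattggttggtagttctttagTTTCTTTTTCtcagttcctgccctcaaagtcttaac
Oas3, chr5:120777695-120777764, minus strand: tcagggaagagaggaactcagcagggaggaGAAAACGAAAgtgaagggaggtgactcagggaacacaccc
Bst2, chr8:71537557-71537632, minus strand: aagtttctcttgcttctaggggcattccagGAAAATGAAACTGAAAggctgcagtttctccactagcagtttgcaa
In Rsad2 and Trim30a the match is on the opposite strand, read as TTTC boxes, and in Bst2 a pair of matches share a box. These letters are a description and show no binding. Among measured genes with a window, the 10 with an ISRE core had a median difference of 0.38 (from -0.06 to 1.15) and 3 without overlap. The 14 without one had a median of 0.18 (from -0.11 to 1.57) and 4 without overlap. In all of these non-overlapping genes the knockout was higher, which held for 8.28% of all genes. Mx1, Zbp1, Usp18, Rtp4, Dhx58 and Oas2, among the genes of smallest p, had no window and are in neither group. The window of Oasl2, the gene with the largest difference, holds neither motif.

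The transcription factors of the response differed little. Irf9, the DNA-binding part of the complex, read 9.84, 9.55 and 9.47 across the knockout arrays and 9.35, 9.42 and 9.37 across the wild-type arrays. Its groups did not overlap, but the difference of 0.24 (SE 0.10, adjusted p = 0.430) was 0.13 without knockout replicate 1. Stat2, the partner of IRF9, read 7.21, 6.74 and 6.67 across the knockout arrays and 6.90, 6.97 and 6.94 across the wild-type arrays. Knockout replicate 1 lay above the wild-type arrays for Stat2 and the other knockout arrays below them, so the difference was -0.06 (SE 0.14; -0.23 without knockout replicate 1), and a dimmer probe set differed by 0.08. Irf7, the factor that amplifies interferon production, read 8.77, 8.32 and 8.54 across the knockout arrays and 8.25, 8.33 and 8.51 across the wild-type arrays, and the groups overlapped (0.19, SE 0.13, adjusted p = 0.626; 0.07 without knockout replicate 1). Irf1, which also answers interferon-gamma, read 11.06, 11.11 and 11.13 against 10.80, 10.99 and 11.00. This difference of 0.17 (SE 0.08, adjusted p = 0.454) was 0.19 without knockout replicate 1, the lowest of the 3 knockout arrays, and 0.10 without wild-type replicate 1, the lowest of all. The nuclear body protein gene Sp100 differed by -0.02 (SE 0.08).

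Among the nucleic acid sensors 4 of 5 measured genes were higher, 3 of them without overlap, against 50.7% and 8.28% of all genes. Zbp1, a sensor of left-handed nucleic acid that triggers cell death, read 8.85, 8.55 and 8.45 across the knockout arrays and 7.79, 8.20 and 8.09 across the wild-type arrays (0.59, SE 0.14, adjusted p = 0.178). Eif2ak2 encodes PKR, a kinase that halts translation when it binds double-stranded RNA. It read 7.07, 6.38 and 6.86 across the knockout arrays and 5.95, 6.23 and 6.29 across the wild-type arrays, a difference of 0.61 (SE 0.18, adjusted p = 0.265), and its other probe set differed by 0.55. Dhx58, the regulatory RNA helicase LGP2, read 7.60, 7.12 and 7.08 against 6.89, 6.73 and 6.94 (0.41, SE 0.15, adjusted p = 0.340; 0.25 without knockout replicate 1). For Dhx58, 2 dimmer probe sets differed by 0.20 and -0.04. Ifih1, the RNA sensor MDA5, overlapped between groups at 0.25 (SE 0.13; 0.13 without knockout replicate 1). The DNA-sensor family gene Ifi204 differed by -0.40 (SE 0.21), but it lay below the lower quartile in all 6 arrays, from 2.55 to 3.48, so its presence in these cells is not established.

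All 5 OAS family genes were higher, with a median difference of 0.41. OAS enzymes make a short nucleotide chain that activates RNase L. Oasl2 read 6.06, 5.21 and 4.69 across the knockout arrays and 3.34, 3.90 and 4.02 across the wild-type arrays. Each wild-type array lay below its lower quartile for Oasl2 and each knockout array above, a difference of 1.57 (SE 0.34, adjusted p = 0.150). Expression of Oasl2 in the wild-type cells is thus not established, and no fold is given. Without knockout replicate 1 it was 1.20. Oas2 read 6.54, 5.89 and 5.69 across the knockout arrays and 5.42, 5.53 and 5.64 across the wild-type arrays, so the groups were separated by little (0.51, SE 0.21, adjusted p = 0.395; 0.26 without knockout replicate 1). Oas3, Oasl1 and Oas1a differed by 0.41, 0.40 and 0.35 with overlap, and without knockout replicate 1 by 0.21, 0.15 and 0.10.

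The IFIT family binds foreign RNA ends and sits in 1 gene cluster, and its 3 genes overlapped between genotypes. Ifit1 read 8.65, 7.59 and 7.79 across the knockout arrays and 7.36, 7.58 and 7.78 across the wild-type arrays. Knockout replicate 1 stood far above the other arrays, which had like values in both genotypes, so the difference of 0.44 (SE 0.27, adjusted p = 0.582) was 0.12 without it. Ifit3 read 7.58, 6.45 and 6.73 against 6.27, 6.31 and 6.94, with 0.41 (SE 0.31) and 0.08 without knockout replicate 1. Ifit2 differed by -0.01 (SE 0.09).

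The direct antiviral effectors split in size. Rsad2 encodes viperin, which makes a chain-terminating nucleotide. It read 7.65, 6.53 and 7.03 across the knockout arrays and 5.93, 5.81 and 6.01 across the wild-type arrays. Even the lowest knockout array lay well above the highest wild-type array for Rsad2, and the difference was 1.15 (2.22-fold higher, SE 0.25, 95% interval 0.55 to 1.75, adjusted p = 0.152). Its other probe sets differed by 1.28, also without overlap, and by 0.48 with overlap. Without knockout replicate 1 the brightest probe set of Rsad2 differed by 0.86. Mx1, a dynamin-like GTPase that traps viral nucleocapsids, read 6.68, 6.12 and 6.22 against 5.40, 5.61 and 5.78, again without overlap (0.74, SE 0.17, adjusted p = 0.155; 0.57 without knockout replicate 1). Its neighbour Mx2 differed by 0.12 (SE 0.07). The exonuclease Isg20 (0.23) and the virion tether Bst2 (0.20), also a surface marker of plasmacytoid dendritic cells, overlapped, and without knockout replicate 1 they differed by 0.14 and 0.09. Adar, which edits double-stranded RNA, differed by 0.02 and the dNTPase Samhd1 by -0.00. The other probe sets of Samhd1, all dimmer, differed by 0.00, -0.14 and -0.21. The 6 of the 34 genes that differed by less than 0.1 either way had 95% intervals within -0.39 to 0.33.

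**Figure D2:**
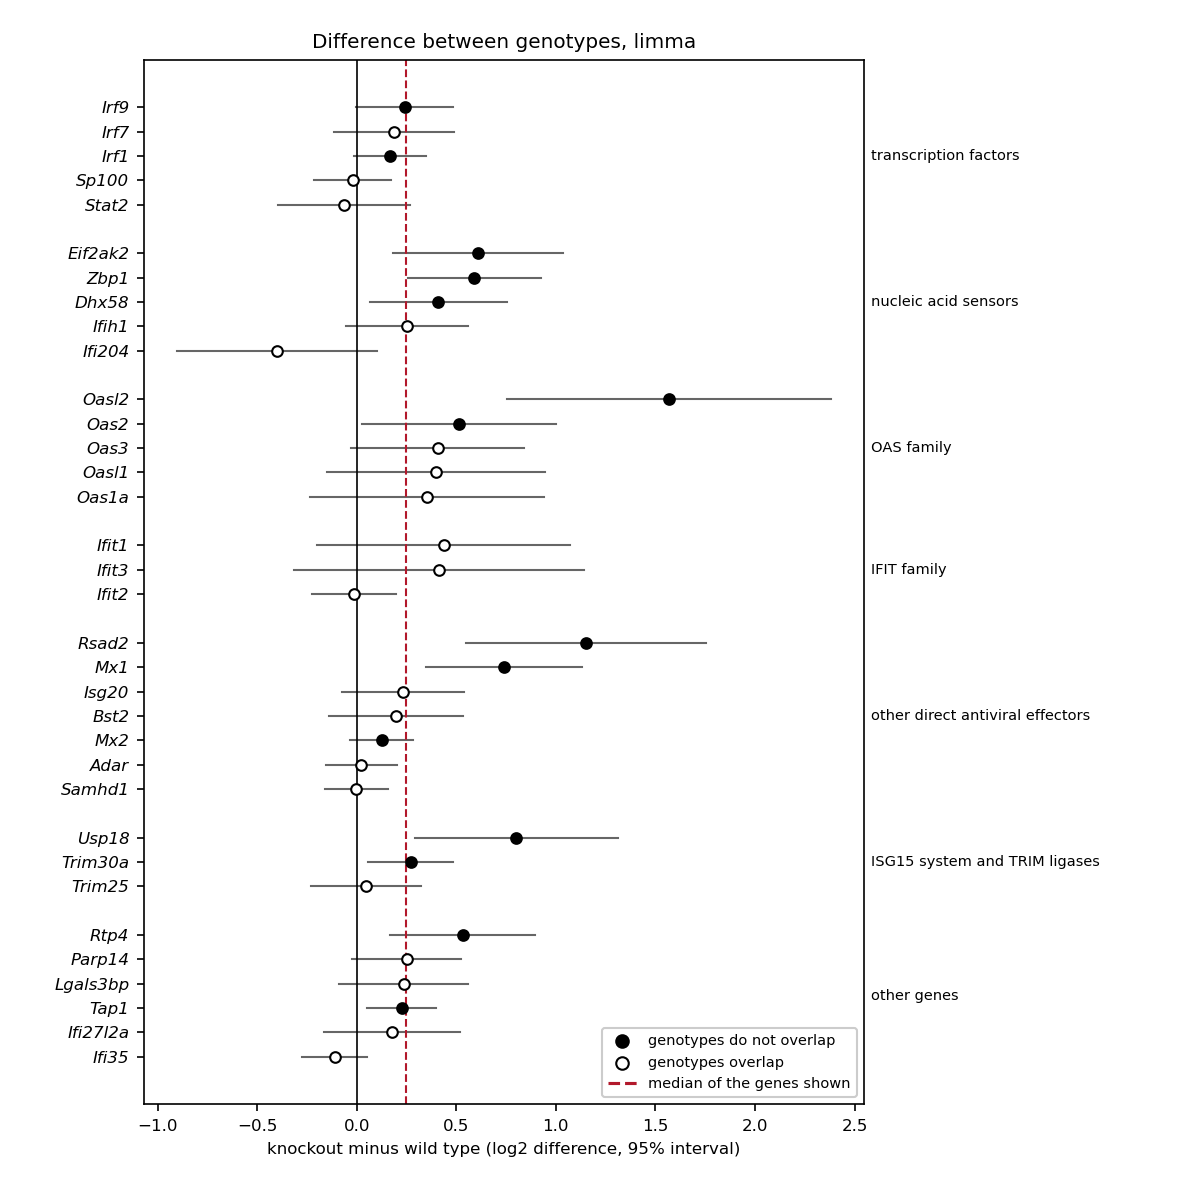
Log2 difference between knockout and wild type with its 95% interval (horizontal axis) for the 34 measured genes by role, filled where the genotypes do not overlap. The intervals of 11 genes exclude 0, 0 genes pass the adjusted threshold, and the dashed line marks the median of 0.25.

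In the ISG15 system, a ubiquitin-like tag placed on proteins during the response, Usp18 stood out. USP18 removes the tag and holds back the receptor. Usp18 read 9.08, 8.58 and 8.33 across the knockout arrays and 7.83, 7.60 and 8.17 across the wild-type arrays (0.80, 1.74-fold higher, SE 0.21, adjusted p = 0.216; 0.59 without knockout replicate 1). Ube2l6, the conjugating enzyme of the same tag and not among the 38 listed genes, read 5.11, 4.58 and 4.63 against 4.26, 4.22 and 4.15 (0.56, SE 0.14, adjusted p = 0.188). Wild-type values of Ube2l6 lay near the arrays' lower quartiles, that of replicate 3 below its own. Expression of Ube2l6 in the wild-type cells is thus not clearly established. Trim30a read 9.88, 9.75 and 9.61 against 9.52, 9.37 and 9.53 (0.27, SE 0.09, adjusted p = 0.309), and its other probe set differed by 0.66, with wild-type replicate 2 lowest at 8.07. The ubiquitin ligase Trim25, an activator of RNA sensing, differed by 0.05 (SE 0.12).

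Of the 6 other genes, Rtp4, a chaperone of receptor transport, read 9.57, 8.96 and 9.07 across the knockout arrays and 8.62, 8.70 and 8.68 across the wild-type arrays. The wild-type arrays for Rtp4 lay within 0.1 of each other and all knockout arrays above them (0.53, SE 0.15, adjusted p = 0.259; 0.35 without knockout replicate 1), while a dimmer probe set differed by 0.06. Tap1, a subunit of the peptide transporter for MHC class I, read 10.49, 10.60 and 10.63 against 10.40, 10.26 and 10.39 (0.23, SE 0.07, adjusted p = 0.301), with knockout replicate 1 the lowest of its group. The other probe sets of Tap1, all dimmer, differed by 0.29, 0.01 and -0.12. That at -0.12, near the floor of the scale, was the most variable. Parp14 (0.25), Lgals3bp (0.24) and Ifi27l2a (0.18) overlapped between genotypes, and without knockout replicate 1 they differed by 0.14, 0.10 and 0.03. Ifi35 differed by -0.11 (SE 0.07), also with overlap. Over all 34 genes, 10 had more than 1 probe set, and for 6 of these all probe sets differed in 1 direction.

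Knockout replicate 1 was the highest array for 28 of the 34 genes, against 13.1% of all genes, and it was above both other knockout arrays for 30. Relative to the wild-type mean, the median over the 34 genes was 0.47 in knockout replicate 1, 0.07 in knockout replicate 2 and 0.18 in knockout replicate 3. The same medians over all genes were -0.03, 0.00 and 0.02. Wild-type arrays had medians of -0.04, -0.00 and 0.08. The spread was accordingly wider in the knockout, with a median SD of 0.22 (n = 3) against 0.13 (n = 3) in wild type, where all genes had 0.10 in both. Without knockout replicate 1, 26 of the 34 were still higher (Adar and Trim25 turned to -0.04 and -0.02), but the median difference dropped to 0.13. The count without overlap was again 14, against a background that rose to 16.5% with 1 array fewer. The genes with the widest gap between knockout replicate 1 and the mean of the other knockout arrays were Oasl2 (1.11), Ifit3 (0.99), Ifit1 (0.96) and Rsad2 (0.87).

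**Figure D3:**
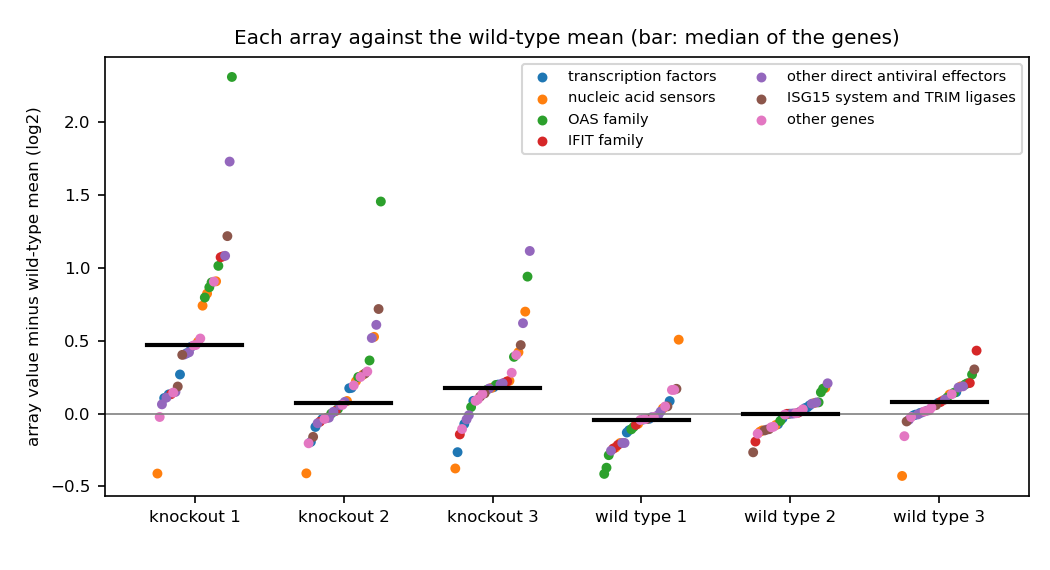
Value of each of the 34 genes minus its wild-type mean (vertical axis, log2) in each array, coloured by role and sorted within an array, with a bar at the median. The median is 0.47 in knockout replicate 1 and between -0.04 and 0.18 in the other 5 arrays.

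The list of interferon ligands, receptors, kinases and regulators and that of nucleic acid sensing lay nearer to no difference than the response genes. The first list also holds feedback inhibitors such as Socs1, so it is not only of steps before the response. Of 34 listed interferon ligands, receptors, kinases and regulators, 24 were measured, 15 higher and 9 lower, with a median of 0.05. By limma 0 passed the adjusted threshold, and 2 were higher and 1 lower at an unadjusted p of 0.05. At that p 5.98% of all genes were higher and 5.83% lower. The 8 measured interferon alpha and beta genes read 2.68 to 5.15, all below the arrays' medians, and differed by -0.29 to 0.19. Differences of such dim probe sets are compressed, so these values say little about the ligands. Ifnar1 read 8.86, 8.82 and 8.86 across the knockout arrays and 8.85, 8.76 and 8.80 across the wild-type arrays, and Ifnar2 differed by 0.11 (SE 0.08). The feedback inhibitor Socs1 differed by 0.14 (SE 0.10; 0.05 without knockout replicate 1). The smallest p-values of that list belonged to the phosphatase gene Ptpn11 (0.34, SE 0.07, adjusted p = 0.131), the cytokine signalling inhibitor Socs3 (0.71, SE 0.15, adjusted p = 0.135), Ptpn2 (-0.24, SE 0.08) and Ifnab (-0.17, SE 0.07). Ifnab lay below the lower quartile in all arrays, from 2.99 to 3.31, so its presence in these cells is not established. Of 21 listed genes of nucleic acid sensing, 15 were measured, 6 higher and 9 lower (median -0.03), again with 0 past limma's adjusted threshold (1 higher and 1 lower, Hdac6 itself, at an unadjusted p of 0.05). Sting1, the adaptor of DNA sensing, read 10.52, 10.44 and 10.26 against 10.24, 10.11 and 10.22 (0.22, SE 0.09, adjusted p = 0.392).

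Other interferon-stimulated genes, listed apart from the 38 but also with earlier results of these data known, were mostly higher in the knockout too. Of 43 listed, 33 were measured, 28 higher and 5 lower, with a median of 0.20. In 13 every knockout array lay above wild type, against 8.28% of all genes, and in 0 below, against 10.3%. By limma 0 passed the adjusted threshold, and at an unadjusted p of 0.05, 10 were higher and 0 lower, against 5.98% and 5.83% of all genes. Slfn2, a regulator of T cell quiescence, read 11.58, 11.55 and 11.47 across the knockout arrays and 11.15, 11.11 and 11.16 across the wild-type arrays (0.39, SE 0.06, adjusted p = 0.0808). For Slfn2 the 3 knockout arrays were alike. Iigp1, an immunity-related GTPase, read 9.90, 9.46 and 9.39 against 8.24, 8.81 and 8.70 (0.998, SE 0.19, adjusted p = 0.110), and Cd274, the inhibitory ligand PD-L1, differed by 0.22 (SE 0.08). Knockout replicate 1 was the highest array for 21 of the 33. Of 12 genes biased to interferon-gamma, 9 were higher and 3 lower (median 0.16), with 0 past limma's adjusted threshold. Gbp2, Gbp3, Gbp6, Irgm1, Igtp and Iigp1 are also among the other interferon-stimulated genes above. At an unadjusted p of 0.05 by limma, 3 were higher and 0 lower, against 5.98% and 5.83% of all genes. These were Iigp1, Igtp and Gbp2, all shared between the lists. Of the guanylate-binding genes among the 12, Gbp2 differed by 0.32 (SE 0.13), Gbp6 by 0.29 (SE 0.12) and Gbp3 by -0.21 (SE 0.11). Without knockout replicate 1 these were 0.19, 0.17 and -0.30.

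**Figure D4:**
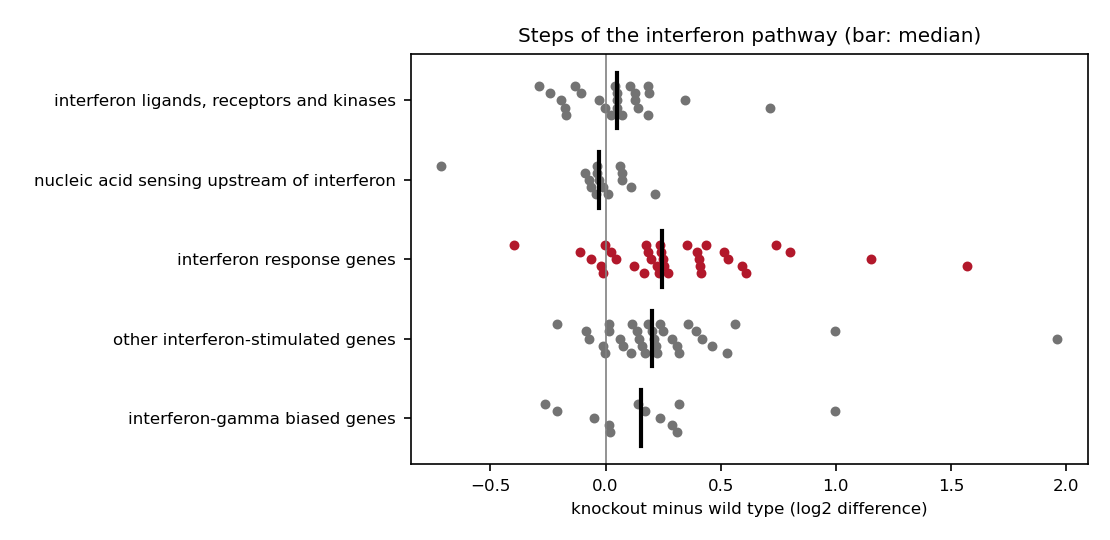
Log2 difference between knockout and wild type (horizontal axis) for every measured gene of 5 lists, with a bar at each median. The interferon response genes (red) and the other interferon-stimulated genes have medians of 0.25 and 0.20, and the ligand and sensing lists 0.05 and -0.03. The lowest point of the sensing list is Hdac6 and the highest point of all is Trim34a, whose difference of 1.96 is 0.30 without wild-type replicate 2.

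Markers of other cells that a CD4+CD25+ isolate can hold were read in the same arrays. In bulk RNA fewer cells of a type and less RNA per cell cannot be told apart. Plasma cell markers were higher in the knockout in 8 of 8 measured of 9 listed genes, 5 of them without overlap, against 8.28% of all genes. Their mean log2 level was 9.05, 8.73 and 9.29 across the knockout arrays and 8.39, 8.61 and 8.51 across the wild-type arrays. The knockout array highest in plasma cell markers was replicate 3, and that highest in interferon response genes was replicate 1. The part of plasma cells in the interferon response values was not tested. Of 8 listed B cell markers 7 were measured, 4 higher and 3 lower. Only Ms4a1, at -1.13 (SE 0.29), had no overlap. The B cell markers averaged 6.45, 6.88 and 6.96 across the knockout arrays and 6.93, 7.02 and 6.83 across the wild-type arrays, lowest in knockout replicate 1. Plasmacytoid dendritic cells are a major source of type I interferon. Their markers (7 of 9 measured, 5 higher and 2 lower) averaged 6.93 to 7.39 in the knockout and 7.19 to 7.36 in wild type, with Klk1 below the lower quartile in all arrays. The 2 lower genes differed most, Spib by -0.94 (SE 0.24) without overlap and Ccr9 by -0.80 (SE 0.24) with overlap. Of the higher genes only Cox6a2, at 0.41 (SE 0.11), had no overlap. Dendritic cell and macrophage markers averaged 6.34 to 6.65 against 6.49 to 6.82 (4 of 12 higher, with Itgam and Xcr1 below the lower quartile in all arrays), and natural killer cell markers 6.50 to 6.89 against 6.83 to 7.09 (0 of 5 higher). Neutrophil markers (1 of 5 higher) averaged 5.44 in knockout replicate 1 and 8.11 in wild-type replicate 2, and 5.97 to 6.78 in the other arrays. The 2 CD8 T cell markers averaged 6.10 to 6.23 in the knockout and 6.17 to 6.29 in wild type. They differed in opposite directions, each without overlap, Cd8b1 by -0.37 (SE 0.08) and Cd8a by 0.25 (SE 0.08). Neither passed limma's adjusted threshold.

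**Figure D5:**
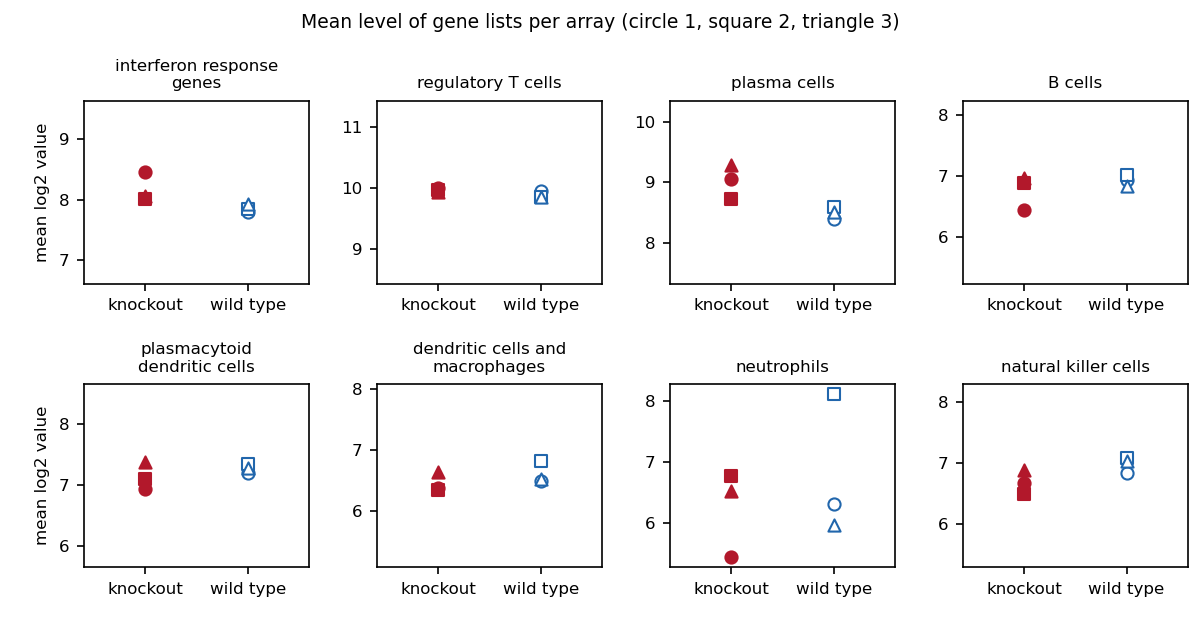
Mean log2 level per array (vertical axis, each panel spanning 3 units) of the interferon response genes and of 7 marker lists, with knockout arrays filled and wild-type arrays open. Knockout replicate 1 (filled circle) is highest for the interferon response genes and lowest for the B cell markers, and all knockout arrays lie above wild type for the plasma cell markers.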

How the data were processed

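The authors deposited 1 table of log2 values for 6 one-colour arrays and 22690 probe sets. RMA is the only tool in the submitters' processing notes. It subtracts background, brings the arrays to 1 distribution and joins the probes of each set, and it compresses differences of dim sets. The array's build is not given in the sources used here. Without 64 control probe sets, 20380 of 22626 named 1 gene, 691 several and 1555 none. Symbols were updated by gene ID (RefSeq, GRCm38.p6; 20351 matched), and each of 12393 genes took its brightest probe set. The genotypes were fitted in limma 3.58.1 (R 4.3.3, eBayes, two-sided, with no term but genotype), adjusted over all genes by Benjamini-Hochberg, at a threshold of 0.05 and 95% intervals. The fit was tested on simulated data. No batch was recorded, and precision is limited by the number of arrays.

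The listed genes and all lists were chosen with earlier results of these data known. Values per array are given for the 12 genes with the smallest p, for Stat2, Irf1, Irf7, Irf9, Usp18 and Ifit1, and for some of up to 4 genes per pathway list, with Ifnar1, Ifnar2 and Socs1. Any other gene was named after its values were seen. The alternatives covered the replicate number as a block, 2 other scalings, trend and robust settings, array weights, a filter on dim genes, 2 other choices among a gene's probe sets, a threshold of 0.1 and arrays left out. Plots were made in Python 3.11.15 (matplotlib 3.10.9).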

Additional observations from a re-analysis of the deposited data

How the results depend on the processing

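With 3 arrays per genotype, 0 of the interferon response genes passed the adjusted threshold under any of the 16 alternatives. The number of higher genes was lowest without the replicate 1 arrays of both genotypes, at 24 of 34 with a median difference of 0.11, and highest at 32 of 34. It was 31 of 34 under quantile normalization and 23 of 28 among genes with a mean of at least 6. Without both replicate 1 arrays, 7 genes were higher at an unadjusted p of 0.05 by limma, against 8 to 13 when 1 array was left out. The share of all genes past that p was taken only with all arrays, at 5.98%. These counts thus have no background of their own setting. Without both replicate 1 arrays, 15 of 34 had no overlap with the knockout higher, against 21.3% of all genes. The count of all genes past the threshold, 21, was 12 with the replicate number as a block, 106 with trend and robust settings, 50 with array weights, 61 among genes with a mean of at least 6, 92 at an adjusted p of 0.1 and 3 without both replicate 1 arrays. Leaving out 1 array it ranged from 3 (without knockout replicate 2 or wild-type replicate 2; 9 without knockout replicate 1) to 28. The labels do not say whether same-numbered arrays belong together. Deviations of same-numbered arrays correlated at 0.21, -0.10 and 0.02, and those of the other pairs at -0.19 to 0.17. With so few arrays these values cannot settle whether samples were paired. The block changed no call among the interferon response genes. Of 253 values of 16 named genes under alternatives, 249 kept their direction. The other 4 were Stat2 at 0.0106 with the mean of its probe sets, at 0.0017 when knockout replicate 2 was left out and at 0.0370 when knockout replicate 3 was (its lowest value was -0.2506 without both replicate 1 arrays), and Tap1 at -0.12 with its most variable probe set. The cause of these shifts was not tested.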

Other observations

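A few interferon-stimulated genes varied widely within a genotype. Trim34a, a relative and chromosomal neighbour of Trim30a, read 9.36, 9.12 and 9.15 across the knockout arrays and 8.95, 3.92 and 8.87 across the wild-type arrays. Its difference of 1.96 was 0.30 (SE 0.10) without wild-type replicate 2. Slfn8, of the same family as Slfn2, read 9.19, 7.29 and 9.10 across the knockout arrays and 6.97, 9.60 and 8.97 across the wild-type arrays, so arrays of both genotypes lay low and high. The membrane antiviral gene Ifitm1 read 7.13, 7.81 and 8.23 against 6.29, 8.31 and 7.49. Cxcl10, a chemokine induced by interferons, was high in knockout replicate 1 at 7.32, while the other 5 arrays lay between 5.72 and 6.46. These genes were chosen after their values were seen.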
